A study of Mus musculus with 10 samples.

Results

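Among 10 RNA-seq libraries of mouse cutaneous squamous cell carcinoma, 6 tumors with high *Vim* were compared by their level of *Ldha* messenger RNA. *Ldha* encodes the lactate dehydrogenase A subunit. The rule kept the 7 tumors in which *Vim*, a filament of mesenchymal and spindle-shaped cells, reached at least 2000 FPKM (fragments of a gene scaled by its length and by the counted total of the library), ranked them by *Ldha* FPKM, and took the 3 highest as Ldha-high tumors and the 3 lowest as Ldha-low tumors, whatever their genotype label. The Ldha-high tumors were the libraries labelled WT4, KO4 and WT1, and the Ldha-low tumors were those labelled WT2, KO5 and KO2. The tumors were thus chosen by their *Vim* and *Ldha* FPKM, with *Ldha* itself left out of all counts below. Values per tumor are given in these orders throughout.

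*Ldha* (ENSMUSG00000063229, chr7:46841475-46855627 in mm10), which set the groups, was at 589, 542 and 389.6 FPKM in the Ldha-high tumors and at 340.1, 324 and 246 FPKM in the Ldha-low tumors, values that describe the choice and are not a finding. WT3, between the groups, was at 345 FPKM, nearest to WT2. The 7 kept tumors had 4101 to 6043 FPKM of *Vim* (ENSMUSG00000026728, chr2:13573927-13582826), and the nearest tumor left out, WT5, had 1485 FPKM. The 3 tumors left out had 1288 to 2824 FPKM of *Ldha*, above each of the 7.

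Labels starting with KO are of genotype LDHA-/- and those starting with WT are of wild type. The series has 5 tumors of each label, every one from its own mouse. The study induced tumors from hair follicle stem cells, with Cre driven by K15CrePR (given mifepristone) or Lgr5CreER (given tamoxifen), in mice that carried floxed p53 among other alleles, with or without floxed *Ldha*, and also induced tumors by DMBA and TPA. Which of these models gave the sequenced tumors is not stated. The methods give young adult mice at treatment and a time to harvest for each model, so the age at harvest of the sequenced mice cannot be assigned. The source is labelled squamous carcinoma cells, but RNA was taken from fresh tumors with no sorting described, and the study itself describes mosaic deletion in some tumors. In such bulk samples, fewer cells of a type and less RNA per cell cannot be told apart. *Ldha* was at 542, 324 and 246 FPKM in KO4, KO5 and KO2, a range that overlapped that of the wild-type label. The label thus did not separate the tumors by gene-level *Ldha* messenger RNA, and KO and WT are used below as names of libraries only. The study assessed loss of *Ldha* in its tumors by Ldh activity, western blotting and lactate level, none of which FPKM measures.

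Lactate dehydrogenase reduces pyruvate, the end product of glycolysis, to lactate and so regenerates the NAD+ that glycolysis consumes. Glycolytic genes, the glucose transporter GLUT1 and *Ldha* itself are well-known targets of the hypoxia-inducible factors, transcription factors that are stabilised when oxygen is low and that also induce genes of mitophagy, collagen modification and vessel growth. In squamous carcinoma, keratinocyte genes mark the epithelial state and vimentin marks spindle-like cells or stroma.

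Total counts were 14684157 to 17694201 in the 6 tumors, and edgeR's quasi-likelihood test was run on 15531 genes besides *Ldha*. At an adjusted p under 0.05, 0 genes differed between the groups (0% of those tested), and the smallest adjusted p was 0.0690. At an unadjusted p under 0.05 stood 2374 genes (15.3%), 1164 with higher values in Ldha-high tumors (7.49%) and 1210 with lower values (7.79%), where 777 would be expected at 5%. limma-voom with quality weights called 741 genes (4.77% of those it tested, with 2.67% higher and 2.11% lower) and DESeq2 called 693 (4.2%, with 1.9% higher and 2.3% lower), and 491 genes were shared, which is 66.3% of the first list and 70.9% of the second. The number of calls by edgeR rested on single tumors too, at 97 genes without WT1 and 23 genes without KO2. The median log2 fold change (Ldha-high minus Ldha-low) over all tested genes was -0.00095, and 49.9% of genes had a positive value. Ranges given after a list median, as a value without 1 tumor to a value without another, are the lowest and highest medians when each tumor was left out. Below, a gene is called higher or lower as a description of its values, since no gene passed the edgeR test.

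The glycolytic enzymes had mostly higher levels in Ldha-high tumors. Of 20 enzymes, 18 were tested and 16 of them had a positive log2 fold change, with a median of 0.73, and 9 were higher and 0 lower at an unadjusted p under 0.05, against 7.49% and 7.79% of all genes. On library-scaled log2 CPM (counts scaled to library size by TMM), all 3 Ldha-high tumors lay above all 3 Ldha-low tumors for 8 enzymes and below for 0, against 9.99% and 10.3% of all genes tested. On deposited FPKM the same ordering held for 6.9% of all genes above and 14.1% below. voom called 8 of the enzymes and DESeq2 called 4, against 4.77% and 4.2% of all genes called in either direction. Leaving out each tumor in turn gave medians of 0.59 to 0.89, the lowest without WT4 and the highest without KO2.

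The 3 other markers named for the comparison, *Pgk1*, *Eno1* and *Slc2a1*, had positive values, and *Slc2a1* alone separated the groups on at least 1 scale. *Pgk1*, the first ATP-yielding enzyme of glycolysis, was at 319.6, 263 and 206 FPKM in the Ldha-high tumors and 106, 124 and 249.6 FPKM in the Ldha-low tumors (log2 fold change 0.82 ± 0.37 (SE), adjusted p = 0.337). *Eno1*, the widely expressed enolase, was at 2633, 1908 and 1581 FPKM in the Ldha-high tumors and 762, 916 and 1984 FPKM in the Ldha-low tumors (log2 fold change 0.84 ± 0.41 (SE), adjusted p = 0.372). The groups overlapped for both genes. KO2, which had the least *Ldha* of the 7 tumors, lay inside the Ldha-high range, while the other Ldha-low tumors lay below it. *Slc2a1*, which encodes GLUT1, was at 137, 139 and 72.8 FPKM in the Ldha-high tumors and 59.5, 73.7 and 70.5 FPKM in the Ldha-low tumors (log2 fold change 0.89 ± 0.28 (SE), adjusted p = 0.206). Its groups did not overlap on library-scaled log2 CPM and overlapped on FPKM, where WT1 lay just below KO5.

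Among the enzymes along the pathway, *Gpi1*, which isomerises glucose 6-phosphate, was at 433, 469 and 389 FPKM in the Ldha-high tumors and 247, 269.8 and 297 FPKM in the Ldha-low tumors (log2 fold change 0.77 ± 0.21 (SE), adjusted p = 0.178). *Pfkm*, a phosphofructokinase subunit at the committed step, was at 33.7, 29.2 and 20 FPKM in the Ldha-high tumors and 14.5, 15.4 and 18.9 FPKM in the Ldha-low tumors (log2 fold change 0.87 ± 0.26 (SE), adjusted p = 0.192). *Aldoa*, which splits the six-carbon sugar, was at 1286, 1375 and 1247 FPKM in the Ldha-high tumors and 753, 885 and 792 FPKM in the Ldha-low tumors (log2 fold change 0.80 ± 0.20 (SE), adjusted p = 0.167). For these 3 genes every Ldha-high tumor lay above every Ldha-low tumor, and for *Aldoa* the tumor between the groups, WT3, was highest of the 7 at 1455 FPKM. *Tpi1*, which interconverts the triose phosphates, was at 1181, 873 and 903 FPKM in the Ldha-high tumors and 572, 520.1 and 810.0 FPKM in the Ldha-low tumors (log2 fold change 0.74 ± 0.27 (SE), adjusted p = 0.254). *Gapdh*, which yields NADH, was at 6001, 4125 and 4723 FPKM in the Ldha-high tumors and 2698, 2893 and 4184 FPKM in the Ldha-low tumors (log2 fold change 0.71 ± 0.29 (SE), adjusted p = 0.297). KO2 again lay inside the Ldha-high range for *Gapdh*, and the groups of *Tpi1* did not overlap.

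In the last steps, *Pgam1*, a phosphoglycerate mutase, was at 333, 278 and 264 FPKM in the Ldha-high tumors and 164, 159 and 206 FPKM in the Ldha-low tumors (log2 fold change 0.83 ± 0.23 (SE), adjusted p = 0.183). The less abundant enolases had the largest differences of the list. *Eno2* was at 26.4, 41.7 and 61.4 FPKM in the Ldha-high tumors and 12.2, 22.6 and 7.09 FPKM in the Ldha-low tumors (log2 fold change 1.75 ± 0.42 (SE), adjusted p = 0.157), and *Eno3* was at 72.3, 77.7 and 127 FPKM in the Ldha-high tumors and 46.8, 45.7 and 35.6 FPKM in the Ldha-low tumors (log2 fold change 1.22 ± 0.25 (SE), adjusted p = 0.118). WT1, which had the least *Ldha* of the Ldha-high tumors, was highest for both, and neither gene's groups overlapped. *Pkm*, pyruvate kinase of most tissues, had a log2 fold change of 0.21 ± 0.34 and overlapping groups. By the exact permutation test of 3 tumors against 3, which cannot give a two-sided p under 0.1, *Tpi1* and *Slc2a1* were at p = 0.1, *Pgk1* at p = 0.2 and *Eno1* at p = 0.3. Several of these enzymes have near-identical processed copies in the genome, so reads may be shared between copies and their values are uncertain to that extent.

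**Figure D1:**
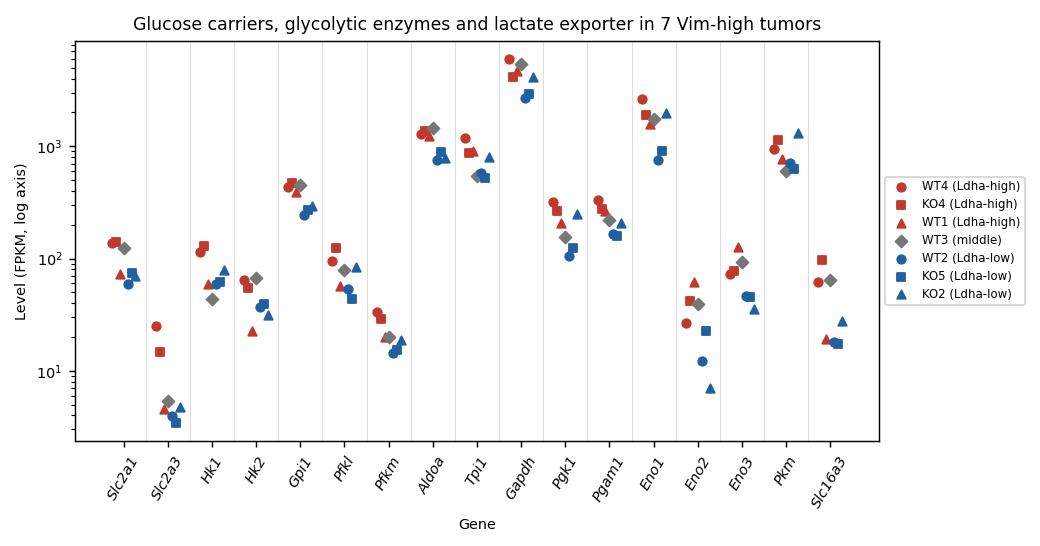
FPKM (log axis) of glycolytic enzymes and carriers in the 7 Vim-high tumors, 1 point per tumor, with Ldha-high tumors in red, the middle tumor WT3 in grey and Ldha-low tumors in blue. The red and blue points do not overlap for *Eno3*, *Aldoa* or *Gpi1*, and KO2 sits among the red points for *Pgk1* and *Eno1*.

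Glucose transporters and lactate carriers bring in the fuel of glycolysis and carry off its product. Of 7 tested glucose transporters, 5 had positive values (median 0.58). At an unadjusted p under 0.05, 3 were higher (*Slc2a1*, *Slc2a3* and *Slc2a8*) and 0 lower, against 7.49% and 7.79% of all genes. *Slc2a3*, the high-affinity transporter GLUT3, was at 25.3, 14.6 and 4.57 FPKM in the Ldha-high tumors and 3.98, 3.43 and 4.79 FPKM in the Ldha-low tumors and overlapped between the groups. The list of other lactate dehydrogenases and carriers of lactate or pyruvate had a median of 0.03, with 4 of 8 values positive, and ran from -0.27 without WT1 to 0.16 without KO4. *Slc16a3*, the lactate exporter MCT4, was at 61.8, 97.4 and 19.2 FPKM in the Ldha-high tumors and 18.1, 17.4 and 27.5 FPKM in the Ldha-low tumors (log2 fold change 1.6 ± 0.51 (SE), adjusted p = 0.213). WT4 and KO4 lay above all Ldha-low tumors, whereas WT1 lay among them. *Ldhb*, the other common subunit, had a log2 fold change of -0.02 ± 0.41, and *Ldhd*, a D-lactate dehydrogenase, had -1.25 ± 0.49.

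In the list of glycolysis regulators, 7 of 11 values were positive with a median of 0.09 (0.06 without WT1 to 0.18 without KO4), and 0 stood at an unadjusted p under 0.05 by edgeR, with 0 called by voom or by DESeq2. *Pdk1*, a kinase that inhibits pyruvate dehydrogenase, had 0.55 ± 0.40 and *Pfkfb3*, which makes the activator of phosphofructokinase, had -0.08 ± 0.22 on the log2 scale.

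Hypoxia targets outside glycolysis included *Ddit4*, the gene with the smallest p among the members of the 45 lists. Of 28 genes, 22 had positive values, the median log2 fold change was 0.51, and 9 were higher and 2 lower at an unadjusted p under 0.05, against 7.49% and 7.79% of all genes. All Ldha-high tumors lay above all Ldha-low tumors for 9 of them and below for 1, against 9.99% and 10.3%. voom and DESeq2 each called 5 of them, against 4.77% and 4.2% of all genes called in either direction. The median ran from 0.42 to 0.57 when each tumor was left out, and was 0.34 when WT3 was added to the Ldha-low tumors. Promoter sequence is shown for the 3 members with the smallest p, as the 250 bases before the RefSeq transcription start in build GRCm38.p6, whose coordinates are those of mm10. Capitals mark each match to the core bound by hypoxia-inducible factors, searched as ACGTG or GCGTG on both strands, where CACGTG counts on either strand. The windows are chr10:59951771-59952020, minus strand, for *Ddit4*, chr7:138909507-138909756, minus strand, for *Bnip3*, and chr11:54100674-54100923, plus strand, for *P4ha2*, and each is written 5′ to 3′ towards the gene.
Ddit4: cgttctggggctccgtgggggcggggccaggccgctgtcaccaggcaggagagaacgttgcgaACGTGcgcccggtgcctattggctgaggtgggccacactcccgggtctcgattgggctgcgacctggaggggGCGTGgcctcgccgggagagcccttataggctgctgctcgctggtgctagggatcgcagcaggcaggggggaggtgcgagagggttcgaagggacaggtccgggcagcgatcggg
Bnip3: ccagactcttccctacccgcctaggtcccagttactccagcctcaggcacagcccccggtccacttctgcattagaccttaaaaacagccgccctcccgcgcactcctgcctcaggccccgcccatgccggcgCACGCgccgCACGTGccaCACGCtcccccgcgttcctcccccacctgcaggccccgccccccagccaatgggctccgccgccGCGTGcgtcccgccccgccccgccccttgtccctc
P4ha2: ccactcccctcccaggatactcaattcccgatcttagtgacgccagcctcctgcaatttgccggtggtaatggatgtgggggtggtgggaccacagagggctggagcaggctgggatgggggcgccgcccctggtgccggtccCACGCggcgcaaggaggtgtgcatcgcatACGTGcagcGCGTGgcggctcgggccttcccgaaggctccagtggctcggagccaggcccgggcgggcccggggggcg

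These windows held 2, 5 and 3 matches. Such a match was found in 38.6% of 32851 RefSeq mouse promoter windows of this length, with 16.6% holding ACGTG and 28.2% GCGTG. It was found in 20 of 26 windows of the hypoxia targets (76.9%), which cover 20 of the 28 genes, and in 20 of 30 windows of the glycolytic enzymes (66.7%), which cover 19 of the 20 genes. A match describes letters only, and the hypoxia list was compiled from known targets of these factors.

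*Ddit4* (ENSMUSG00000020108, chr10:59949675-59951770), an inhibitor of the growth kinase complex mTORC1, was at 115, 91.9 and 104 FPKM in the Ldha-high tumors and 22.3, 24.7 and 32.7 FPKM in the Ldha-low tumors (log2 fold change 2.07 ± 0.24 (SE), adjusted p = 0.0721). The lowest Ldha-high tumor thus lay well above the highest Ldha-low tumor, and WT3, at 33.9 FPKM, lay just above the Ldha-low range. *Bnip3*, a receptor for the removal of mitochondria, was at 131, 107 and 92.7 FPKM in the Ldha-high tumors and 39, 53 and 41.9 FPKM in the Ldha-low tumors (log2 fold change 1.42 ± 0.22 (SE), adjusted p = 0.0864), with WT3 at 91.6 FPKM, near the Ldha-high range. *P4ha2*, a subunit of the collagen prolyl hydroxylase, was at 52.6, 55 and 43.9 FPKM in the Ldha-high tumors and 24.9, 17.1 and 27.4 FPKM in the Ldha-low tumors (log2 fold change 1.22 ± 0.25 (SE), adjusted p = 0.12). *Bhlhe40*, a transcriptional repressor, was at 65, 71.6 and 83.4 FPKM in the Ldha-high tumors and 28.8, 41.9 and 47.2 FPKM in the Ldha-low tumors (log2 fold change 1.0 ± 0.23 (SE), adjusted p = 0.138). None of these genes overlapped between the groups. *P4ha1*, the paralog of *P4ha2*, had a log2 fold change of 0.65 ± 0.26.

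**Figure D2:**
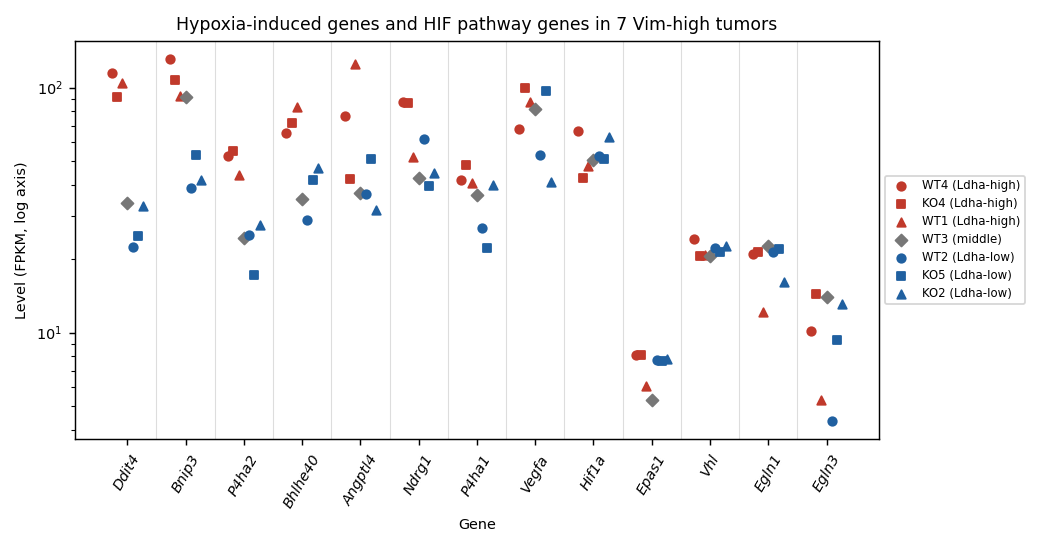
FPKM (log axis) of hypoxia targets and genes of the HIF pathway in the 7 Vim-high tumors, 1 point per tumor, with colors as Ldha-high (red), middle (grey) and Ldha-low (blue). Red and blue points are apart for *Ddit4*, *Bnip3* and *P4ha2* and mixed for *Hif1a*.

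Other classical targets had adjusted p above those of the genes just named. *Vegfa*, the vascular growth factor, was at 67.7, 99.6 and 87.1 FPKM in the Ldha-high tumors and 53.1, 96.8 and 41.2 FPKM in the Ldha-low tumors (log2 fold change 0.53 ± 0.29 (SE), adjusted p = 0.427), and *Car9*, the tumor carbonic anhydrase, was at 4.36, 8.18 and 4.28 FPKM in the Ldha-high tumors and 3.19, 3.69 and 3.86 FPKM in the Ldha-low tumors (log2 fold change 0.74 ± 0.39 (SE), adjusted p = 0.408). *Plod2*, a collagen lysyl hydroxylase, had the opposite sign at -0.63 ± 0.22, with every Ldha-high tumor below every Ldha-low tumor, and *Car12*, another carbonic anhydrase, had -1.04 ± 0.40. The genes of the HIF pathway itself had a median of 0.08 (-0.0048 without KO5 to 0.17 without WT1), and 0 of 8 stood at an unadjusted p under 0.05 by edgeR, with 0 called by voom and 0 by DESeq2. *Hif1a*, the oxygen-regulated subunit, was at 66.8, 42.9 and 48 FPKM in the Ldha-high tumors and 52.4, 51.1 and 62.8 FPKM in the Ldha-low tumors (log2 fold change 0.04 ± 0.24 (SE), adjusted p = 0.963), with overlapping groups. Its activity is set mostly at the protein level, which messenger RNA does not measure.

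The remaining lists of metabolism had medians near 0. The median was -0.12 for the pentose phosphate pathway (4 of 9 positive), -0.10 for pyruvate oxidation and the TCA cycle (10 of 27), 0.02 for nuclear genes of the respiratory chain (12 of 21) and 0.10 for mitochondrially encoded genes (7 of 10). The sign of 3 of these medians turned when 1 tumor was left out. The range was -0.13 without KO5 to 0.04 without KO2 for the pentose phosphate pathway, -0.25 without KO5 to -0.0015 without KO2 for the TCA list, -0.10 without WT1 to 0.07 without KO4 for the respiratory chain and -0.25 without KO2 to 0.37 without WT2 for mitochondrially encoded genes. Mitochondrial genes took 1.48% of the counts of KO2 and 2.35% to 3.79% of those of the other 5 tumors. In the TCA list, *Idh3a*, a subunit of NAD-dependent isocitrate dehydrogenase, was at 17.5, 19.2 and 22.1 FPKM in the Ldha-high tumors and 32.6, 29.4 and 31.8 FPKM in the Ldha-low tumors (log2 fold change -0.57 ± 0.18 (SE), adjusted p = 0.213), with no overlap. *Mdh1*, the cytosolic malate dehydrogenase, had -0.45 ± 0.18, and *Sdhc*, a membrane subunit of succinate dehydrogenase, had 0.42 ± 0.18. In the respiratory chain, *Cox7a2* was the member with the smallest p, at -0.64 ± 0.20.

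Enzymes that feed or branch from glycolysis gave single genes. Glycogen metabolism had a median of -0.09 (4 of 9 positive), and within it *Pgm2*, a phosphoglucomutase, was at 25.9, 21.3 and 19.4 FPKM in the Ldha-high tumors and 9.35, 9.44 and 14.1 FPKM in the Ldha-low tumors (log2 fold change 1.12 ± 0.26 (SE), adjusted p = 0.144). *Pygl*, a glycogen phosphorylase, had 1.29 ± 0.41 with overlapping groups. Serine and one-carbon enzymes had a median of 0.13 (8 of 10 positive), led by *Shmt2* at 0.44 ± 0.19. Glutamine metabolism had a median of 0.21 (8 of 12 positive), led by the amino acid transporter *Slc38a2* at 0.54 ± 0.23. Cholesterol and fatty acid synthesis had a median of -0.12 (8 of 19 positive), with *Idi1* at -0.77 ± 0.27 and *Dhcr7* at 0.81 ± 0.31. Leaving out each tumor gave medians of -0.10 without WT2 to 0.01 without KO4 for glycogen, 0.04 without WT4 to 0.32 without KO4 for serine, 0.12 without WT2 to 0.28 without KO2 for glutamine and -0.21 without WT2 to 0.06 without KO2 for cholesterol and fatty acids.

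Over all tested genes, the one with the smallest p was *Bmp6* (chr13:38345716-38499728), a bone morphogenetic protein, at 15.3, 8.73 and 8.11 FPKM in the Ldha-high tumors and 0.65, 0.981 and 0.817 FPKM in the Ldha-low tumors (log2 fold change 3.83 ± 0.38 (SE), adjusted p = 0.069). *Gfpt2* (chr11:49794178-49838613), the entry enzyme of hexosamine synthesis from fructose 6-phosphate and glutamine, was at 19.4, 37.3 and 20.3 FPKM in the Ldha-high tumors and 4.17, 3.34 and 4.43 FPKM in the Ldha-low tumors (log2 fold change 2.78 ± 0.30 (SE), adjusted p = 0.0721). These and *Ddit4* were the 3 genes that passed when upper-quartile factors replaced TMM. *Mfap5*, a microfibril protein, was at 70.1, 79.3 and 62.4 FPKM in the Ldha-high tumors and 31.6, 33 and 24.9 FPKM in the Ldha-low tumors (log2 fold change 1.35 ± 0.20 (SE), adjusted p = 0.0864), and *Vamp5*, a membrane fusion protein, was at 44.3, 39.6 and 40.8 FPKM in the Ldha-high tumors and 11.3, 15.9 and 15.4 FPKM in the Ldha-low tumors (log2 fold change 1.66 ± 0.21 (SE), adjusted p = 0.077). Each of these lay higher in every Ldha-high tumor than in every Ldha-low tumor. WT3 lay between the groups for *Bmp6* (2.59 FPKM), *Gfpt2* (13.1 FPKM) and *Vamp5* (17.9 FPKM). For *Mfap5* it lay above every compared tumor, at 114 FPKM.

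Larger folds came with low levels in Ldha-low tumors. *Ube2ql1*, which belongs to the ubiquitin-conjugating enzymes, was at 38.1, 34.7 and 5.99 FPKM in the Ldha-high tumors and 0.407, 0.724 and 0.195 FPKM in the Ldha-low tumors (log2 fold change 6.03 ± 0.79 (SE), adjusted p = 0.077), and was the 1 gene that passed when *Ldha* was entered as a slope over the 7 tumors. *Cdh10*, a cadherin, was at 1.8, 0.634 and 2.28 FPKM in the Ldha-high tumors and 0, 0.0199 and 0.0191 FPKM in the Ldha-low tumors (log2 fold change 6.73 ± 0.85 (SE), adjusted p = 0.077). *Zfhx4*, a zinc finger homeobox factor, was at 4.84, 2.19 and 3.0 FPKM in the Ldha-high tumors and 0.0987, 0.0952 and 0.315 FPKM in the Ldha-low tumors (log2 fold change 4.39 ± 0.59 (SE), adjusted p = 0.077). Fitted folds of genes this low depend on the prior count. *Prl2c2*, a proliferin with near-identical copies nearby, had 2.3 ± 0.29, and *A430105I19Rik* completed the first 10 in this direction. WT3 lay above every compared tumor for *Prl2c2* (237 FPKM) and inside the Ldha-high range for *Cdh10* (1.88 FPKM). It lay between the groups for *Ube2ql1* (1.09 FPKM) and below every Ldha-low tumor for *Zfhx4* (0.0559 FPKM).

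Of the first 10 genes lower in Ldha-high tumors, several belong to the outer epidermis. *Fabp5*, the epidermal fatty acid binding protein, was at 27.2, 46 and 27.5 FPKM in the Ldha-high tumors and 257, 184 and 123 FPKM in the Ldha-low tumors (log2 fold change -2.38 ± 0.33 (SE), adjusted p = 0.077). *Flg*, filaggrin of the cornified layer, was at 6.48, 11.4 and 3.96 FPKM in the Ldha-high tumors and 46, 48.7 and 43.8 FPKM in the Ldha-low tumors (log2 fold change -2.56 ± 0.35 (SE), adjusted p = 0.077), and *Hrnr*, its relative hornerin, was at 0.0362, 0.0828 and 0.0319 FPKM in the Ldha-high tumors and 0.798, 0.499 and 0.514 FPKM in the Ldha-low tumors (log2 fold change -3.48 ± 0.51 (SE), adjusted p = 0.0864). *Calm4*, a calmodulin of differentiating epidermis, had -3.61 ± 0.55, and *Blmh*, a protease of filaggrin breakdown, had -1.49 ± 0.24. The others were *Kif15*, a mitotic kinesin, at -1.67 ± 0.26, *Dync1i1*, a dynein chain, at -4.12 ± 0.65, *Gpr126*, an adhesion receptor, at -2.42 ± 0.37, and 2 predicted genes.

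Keratinocyte genes were lower in Ldha-high tumors as a list. Of 16 genes of differentiated keratinocytes, 0 had a positive value, the median was -1.93, 12 were lower at an unadjusted p under 0.05 (against 7.79% of all genes) and 10 lay fully below (against 10.3%), and voom called 6 (against 2.11% of all genes called lower) and DESeq2 called 8 (against 2.3%). Their summed level was 352, 798 and 105 FPKM in the Ldha-high tumors and 2647, 2275 and 1434 FPKM in the Ldha-low tumors, and 0 of the 16 were at 0 in all 6 tumors. *Krt1*, a keratin of suprabasal cells, was at 8.09, 29.2 and 5.4 FPKM in the Ldha-high tumors and 77.8, 149.7 and 38 FPKM in the Ldha-low tumors (log2 fold change -2.52 ± 0.67 (SE), adjusted p = 0.177). *Krt16*, a keratin of activated epidermis, was at 28.6, 102 and 8.96 FPKM in the Ldha-high tumors and 552, 306 and 276 FPKM in the Ldha-low tumors (log2 fold change -2.94 ± 0.76 (SE), adjusted p = 0.17). *Krtdap*, secreted by differentiating keratinocytes, had -3.25 ± 0.59, and *Sprr2d*, a cornified envelope protein of a family with similar copies, had -3.49 ± 0.98. WT1 had the lowest summed level of the 6 tumors, and the list median ran from -2.83 to -1.55 when each tumor was left out.

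Basal keratinocyte genes had a median of -0.66 with 10 of 12 values negative, and ran from -1.38 without KO4 to -0.50 without WT1. It was -0.23 within KO (4 of 12 positive) and -1.54 within WT (3 of 12), where KO4 was set against KO2 and KO5, and WT1 and WT4 against WT2. The list had a summed level of 741, 1104 and 424 FPKM in the Ldha-high tumors and 3598, 2037 and 2641 FPKM in the Ldha-low tumors. *Krt14*, the basal keratin, was at 359, 549.6 and 138 FPKM in the Ldha-high tumors and 2830.1, 1337 and 2112 FPKM in the Ldha-low tumors (log2 fold change -2.49 ± 0.51 (SE), adjusted p = 0.118), and its partner *Krt5* had -1.73 ± 0.50. *Trp63*, a key regulator of stratified epithelium, had -1.31 ± 0.42. *Itgb4*, a subunit of the hemidesmosome integrin, had the opposite sign, at 126, 166 and 50.4 FPKM in the Ldha-high tumors and 51.5, 53.6 and 36.8 FPKM in the Ldha-low tumors (log2 fold change 1.38 ± 0.40 (SE), adjusted p = 0.19). Hair follicle stem cell genes had a median of 0.28 (6 of 8 positive), led by the factor *Tcf7l1* at 0.90 ± 0.33. The part of epithelial content in the values of the glycolytic and hypoxia lists was not tested.

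Interferon-stimulated genes had the lowest median among the lists of at least 4 tested genes. All 14 had negative values, with a median of -2.05, 12 were lower at an unadjusted p under 0.05 (against 7.79% of all genes) and 6 lay fully below (against 10.3%), while voom called 0 and DESeq2 called 4 (against 2.3% of all genes called lower). Their summed level was 147, 321 and 108 FPKM in the Ldha-high tumors and 329.6, 682 and 797 FPKM in the Ldha-low tumors, and 0 of the 14 were at 0 in all 6 tumors. Leaving out each tumor gave medians of -2.51 to -1.4. The promoter windows of *Ifit1* (chr19:34640639-34640888, plus strand) and *Rsad2* (chr12:26456453-26456702, minus strand) are shown because they hold the interferon response element, searched as TTTC and TTTC with any 2 bases between them on both strands. Capitals here mark this element only.
Ifit1: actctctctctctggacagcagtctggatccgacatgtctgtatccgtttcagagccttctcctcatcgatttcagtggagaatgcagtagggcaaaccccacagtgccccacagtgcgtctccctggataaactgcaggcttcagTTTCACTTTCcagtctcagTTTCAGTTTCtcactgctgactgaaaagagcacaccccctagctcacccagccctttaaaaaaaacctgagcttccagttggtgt
Rsad2: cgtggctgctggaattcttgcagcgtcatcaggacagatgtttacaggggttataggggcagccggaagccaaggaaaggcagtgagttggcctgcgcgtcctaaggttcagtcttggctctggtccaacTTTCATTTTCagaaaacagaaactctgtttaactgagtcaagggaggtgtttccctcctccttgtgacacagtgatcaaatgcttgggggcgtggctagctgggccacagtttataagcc

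The element was found in 2.98% of all windows and in 7 of 14 windows of this list (50%), which cover 12 of its 14 genes, and the 2 windows of *Ifit2* held none. The list was compiled from genes known to be induced by interferon, so this share describes letters only and not these tumors. *Ifit1*, an RNA-binding antiviral protein, was at 2.92, 8.21 and 0.657 FPKM in the Ldha-high tumors and 11.6, 38.8 and 46 FPKM in the Ldha-low tumors (log2 fold change -2.94 ± 0.81 (SE), adjusted p = 0.183). *Ifit2*, its relative, was at 4.23, 6.72 and 7.08 FPKM in the Ldha-high tumors and 10.7, 27.1 and 35.3 FPKM in the Ldha-low tumors (log2 fold change -1.93 ± 0.42 (SE), adjusted p = 0.133). *Rsad2*, the antiviral enzyme viperin, was at 1.54, 2.91 and 3.1 FPKM in the Ldha-high tumors and 4.09, 9.88 and 22.3 FPKM in the Ldha-low tumors (log2 fold change -2.19 ± 0.58 (SE), adjusted p = 0.178). None of the 3 overlapped between the groups. *Oasl2*, an oligoadenylate synthase relative, had -1.9 ± 0.56, and *Cxcl10*, a chemokine for T cells, had -2.52 ± 0.85.

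The lymphocyte lists had negative medians. Of 15 T and NK cell genes, 15 had negative values with a median of -1.65, 3 were lower at an unadjusted p under 0.05 (against 7.79% of all genes) and 4 lay fully below (against 10.3%), and leaving out each tumor gave medians of -2.91 without KO4 to -1.24 without WT1. Their summed level was 106, 131 and 75.8 FPKM in the Ldha-high tumors and 235, 236 and 177 FPKM in the Ldha-low tumors. *Gzmb*, a cytotoxic protease, was at 0.837, 3.14 and 0.082 FPKM in the Ldha-high tumors and 5.96, 7.01 and 6.78 FPKM in the Ldha-low tumors (log2 fold change -2.19 ± 0.86 (SE), adjusted p = 0.282), and *Ncr1*, a receptor of NK cells, had -1.91 ± 0.65. Within the labels the median was -0.10 for KO4 minus the mean of KO2 and KO5, and -3.37 for the mean of WT1 and WT4 minus WT2, and the difference between these was not tested. For MHC class II genes the median was -0.99 over all 6 tumors (5 of 5 negative), 0.49 within the KO label and -2.74 within the WT label, and ran from -2.22 without KO4 to -0.52 without WT1. Of the B cell list only 3 of 6 genes were tested, with a median of -2.28.

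Of 26 cell cycle genes, 24 had negative values, with a median of -0.60, and 10 were lower at an unadjusted p under 0.05 (against 7.79% of all genes) and 9 lay fully below (against 10.3%). voom called 7 (against 2.11% of all genes called lower) and DESeq2 called 4 (against 2.3%), and leaving out each tumor gave medians of -0.92 without WT1 to -0.48 without KO4. *Top2a*, the DNA topoisomerase of dividing cells, was at 33.6, 39.4 and 59.2 FPKM in the Ldha-high tumors and 109.5, 109 and 115 FPKM in the Ldha-low tumors (log2 fold change -1.24 ± 0.23 (SE), adjusted p = 0.118). *Mki67*, the proliferation marker Ki-67, was at 4.09, 4.19 and 8.99 FPKM in the Ldha-high tumors and 10.7, 16.9 and 14.4 FPKM in the Ldha-low tumors (log2 fold change -1.18 ± 0.33 (SE), adjusted p = 0.183), and *Mcm5*, a subunit of the replication helicase, was at 5.17, 5.42 and 6.34 FPKM in the Ldha-high tumors and 10.6, 10.8 and 23.5 FPKM in the Ldha-low tumors (log2 fold change -1.32 ± 0.35 (SE), adjusted p = 0.178). *Ccnb2*, a mitotic cyclin, had -1.47 ± 0.39. The summed level of the list overlapped, at 551, 578 and 952 FPKM in the Ldha-high tumors and 917, 1052 and 1201 FPKM in the Ldha-low tumors.

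**Figure D3:**
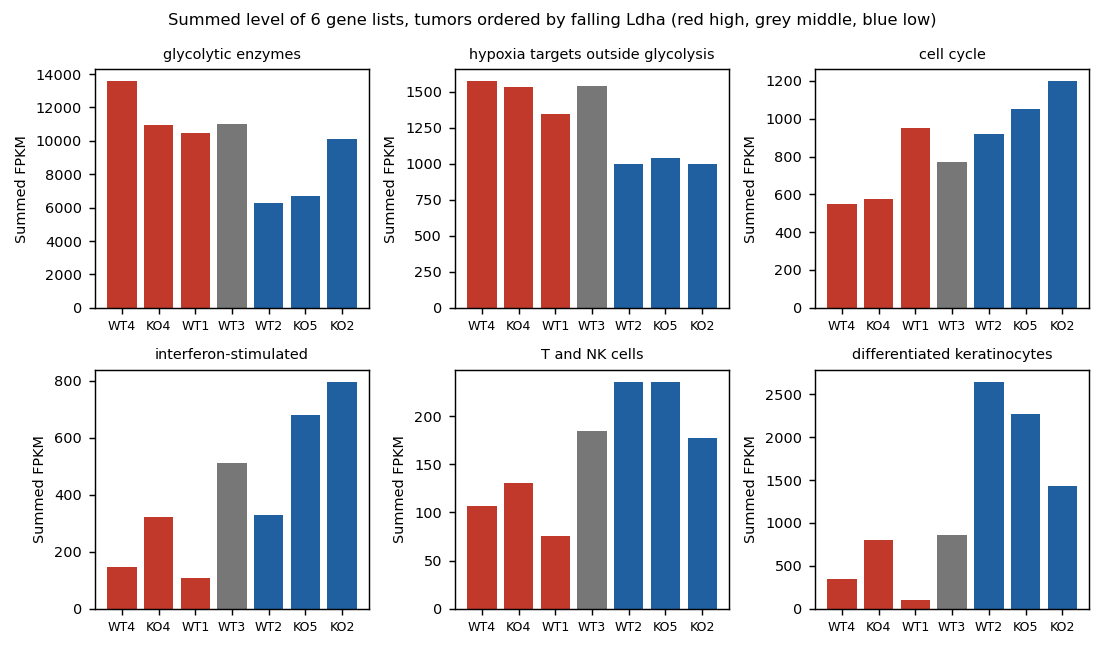
Summed FPKM of 6 lists in each of the 7 Vim-high tumors (bars from 0), colored as Ldha-high (red), middle (grey) and Ldha-low (blue). The summed hypoxia targets are 1343 to 1576 FPKM in the red bars and 995 to 1042 FPKM in the blue bars, and the summed keratinocyte and T and NK cell genes stand the other way.

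Regulators of growth gave small list medians. MYC and its antagonists had a median of -0.04 (5 of 10 positive), with *Mycn*, a MYC paralog, at 0.231, 0.40 and 0.772 FPKM in the Ldha-high tumors and 2.23, 3.0 and 2.54 FPKM in the Ldha-low tumors (log2 fold change -2.36 ± 0.50 (SE), adjusted p = 0.127). *Mnt*, a MYC antagonist, had 0.75 ± 0.23, and *Myc* itself had 0.54 ± 0.29. Ribosome biogenesis had a median of 0.11 (14 of 19 positive). With each tumor left out in turn, the medians were -0.18 without WT2 to 0.03 without WT1 for the MYC list and 0.01 without KO5 to 0.14 without KO4 for ribosome biogenesis. The list of EGF receptors and RAS feedback had a median of 0.20 (0.04 without WT2 to 0.35 without KO2). Of its 16 genes, 5 were higher and 2 lower at an unadjusted p under 0.05, against 7.49% and 7.79% of all genes. *Hbegf*, a ligand of the EGF receptor, was at 27.2, 31.1 and 31.9 FPKM in the Ldha-high tumors and 16.1, 19 and 15.7 FPKM in the Ldha-low tumors (log2 fold change 0.93 ± 0.17 (SE), adjusted p = 0.112). Feedback genes of the RAS pathway went both ways, with *Spred2* at 0.74 ± 0.18 and *Dusp5* at 0.82 ± 0.24 but *Spry2* at -0.36, *Dusp6* at -0.28 and *Spred1* at -0.19. *Erbb3*, a receptor, had -1.33 ± 0.41 and *Tgfa*, a ligand, had -1.21 ± 0.45. In the whole list 9 values were positive and 7 negative.

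The list of p53-related genes held *Trp53* itself and *Cdkn2a* besides p53 targets, and had a median of 0.21 (6 of 10 positive). At an unadjusted p under 0.05, 3 of the 10 were higher and 0 lower, against 7.49% and 7.79% of all genes. *Bbc3*, the cell death gene PUMA, had 1.02 ± 0.29, and *Cdkn2a*, a locus of cell cycle inhibitors, had 0.94 ± 0.27. The 4 negative values included the p53 targets *Ccng1* at -0.59 and *Sesn1* at -0.54. The list of ATF4 and the unfolded protein response had a median of -0.06 (-0.10 without KO5 to 0.03 without WT2). Of its 15 genes, 5 were higher and 0 lower at an unadjusted p under 0.05, against 7.49% and 7.79% of all genes. *Atf4*, the stress factor, was at 201, 189 and 178 FPKM in the Ldha-high tumors and 109, 130.3 and 146 FPKM in the Ldha-low tumors (log2 fold change 0.67 ± 0.21 (SE), adjusted p = 0.206). Its targets included *Ddit3* at 0.68 ± 0.23 and *Trib3* at 0.98 ± 0.40. In the same list 7 values were positive and 8 negative, the latter including *Chac1* at -0.06 and *Atf3* at -0.54. NRF2 targets had a median of 0.09 (0.03 without WT1 to 0.34 without KO2), with *Nqo1*, a quinone reductase, at 1.32 ± 0.41 and *Gsta4*, a glutathione transferase, at -2.85 ± 0.64. Immediate early and heat shock genes had a median of 0.32 (9 of 13 positive, 0.26 without KO2 to 0.57 without WT1), with 0 at an unadjusted p under 0.05 by edgeR, 0 called by voom and 0 by DESeq2.

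Mesenchymal genes had a median of 0.44 with 11 of 13 values positive, *Vim* included, which had served to choose the tumors. The median ran from 0.20 without KO2 to 0.48 without WT1. *Snai1*, a repressor of epithelial genes, was at 44.6, 46.8 and 36.8 FPKM in the Ldha-high tumors and 6.6, 11.8 and 25.4 FPKM in the Ldha-low tumors (log2 fold change 1.64 ± 0.45 (SE), adjusted p = 0.181). *S100a4*, a calcium-binding protein of motile cells, was at 6809, 4436 and 4607 FPKM in the Ldha-high tumors and 1194, 1750.2 and 3678 FPKM in the Ldha-low tumors (log2 fold change 1.36 ± 0.44 (SE), adjusted p = 0.214). *Zeb2*, another such repressor, had the opposite sign at -0.48 ± 0.21. Fibroblast genes had a median of 0.41 (9 of 12 positive, 0.27 without WT4 to 0.63 without KO2), led by *Col1a2* at 1.22 ± 0.34. In the TGF-beta list, with a median of 0.15 (0.10 without KO2 to 0.32 without KO5), the receptor *Tgfbr1* had -0.71 ± 0.17 and the inhibitor *Smad7* had 0.74 ± 0.27.

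The list of matrix proteases also held their inhibitors *Timp1*, *Timp2* and *Timp3* and the receptor *Plaur*. It had a median of 0.23 (-0.07 without KO5 to 0.46 without KO2). Of its 14 tested genes, 3 were higher and 2 lower at an unadjusted p under 0.05, against 7.49% and 7.79% of all genes. *Plaur*, the urokinase receptor, was at 89.1, 78.7 and 133 FPKM in the Ldha-high tumors and 36.3, 38.9 and 53.7 FPKM in the Ldha-low tumors (log2 fold change 1.32 ± 0.27 (SE), adjusted p = 0.118). *Mmp13*, a collagenase, was at 83.4, 29.3 and 18.9 FPKM in the Ldha-high tumors and 4.2, 1.83 and 11.5 FPKM in the Ldha-low tumors (log2 fold change 3.01 ± 0.77 (SE), adjusted p = 0.17). *Mmp12*, the macrophage elastase, had -1.42 ± 0.47. In the list of neutrophils and IL-1 inflammation, with a median of -0.11 (-0.52 without WT4 to 0.06 without KO5), *Cxcl1*, a neutrophil chemokine, was at 102, 40.7 and 46.4 FPKM in the Ldha-high tumors and 21.9, 8.65 and 9.66 FPKM in the Ldha-low tumors (log2 fold change 2.36 ± 0.50 (SE), adjusted p = 0.127), while *Il1a*, a cytokine of keratinocytes, had -1.77 ± 0.61 and *S100a9* had -2.17 ± 0.63. Macrophage genes had a median of -0.39 (10 of 14 negative), which ran from -0.77 without KO5 to -0.04 without KO2, with *Arg1*, arginase, at 1.58 ± 0.44, and *Adgre1*, the marker F4/80, at -1.39 ± 0.46.

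Lists of vessels and other tissues followed. The median was -0.30 for endothelium (9 of 12 negative), 0.14 for pericytes and smooth muscle (6 of 10 positive), 0.23 for angiogenic factors (7 of 10 positive), -0.03 for mast cells, -0.03 for skeletal muscle and 0.38 for erythroid genes. Without each tumor in turn, the medians were -0.43 without WT2 to -0.08 without KO2 for endothelium, -0.21 without KO4 to 0.30 without KO2 for pericytes, 0.11 without WT1 to 0.39 without KO5 for angiogenic factors, -0.68 without WT4 to 0.30 without WT1 for mast cells and -0.56 without WT1 to 0.23 without WT2 for skeletal muscle. The erythroid median ran from -1.56 without WT1 to 0.84 without WT2, was -0.04 without KO2, and was -1.04 within KO (1 of 6 positive) and -0.51 within WT (1 of 6). Adipocyte genes had a median of -1.53 (6 of 6 negative, -1.9 without KO2 to -0.97 without WT1), with *Adipoq*, the hormone adiponectin, at -2.15 ± 0.76. Of 6 Schwann cell genes 3 were tested, with a median of -0.15 (-0.66 without KO2 to -0.07 without KO4), and *S100b* had 2.21 ± 0.53. Genes next to *Ldha* on chromosome 7 had a median of 0.02 (5 of 10 positive, -0.09 without WT2 to 0.11 without KO2).

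**Figure D4:**
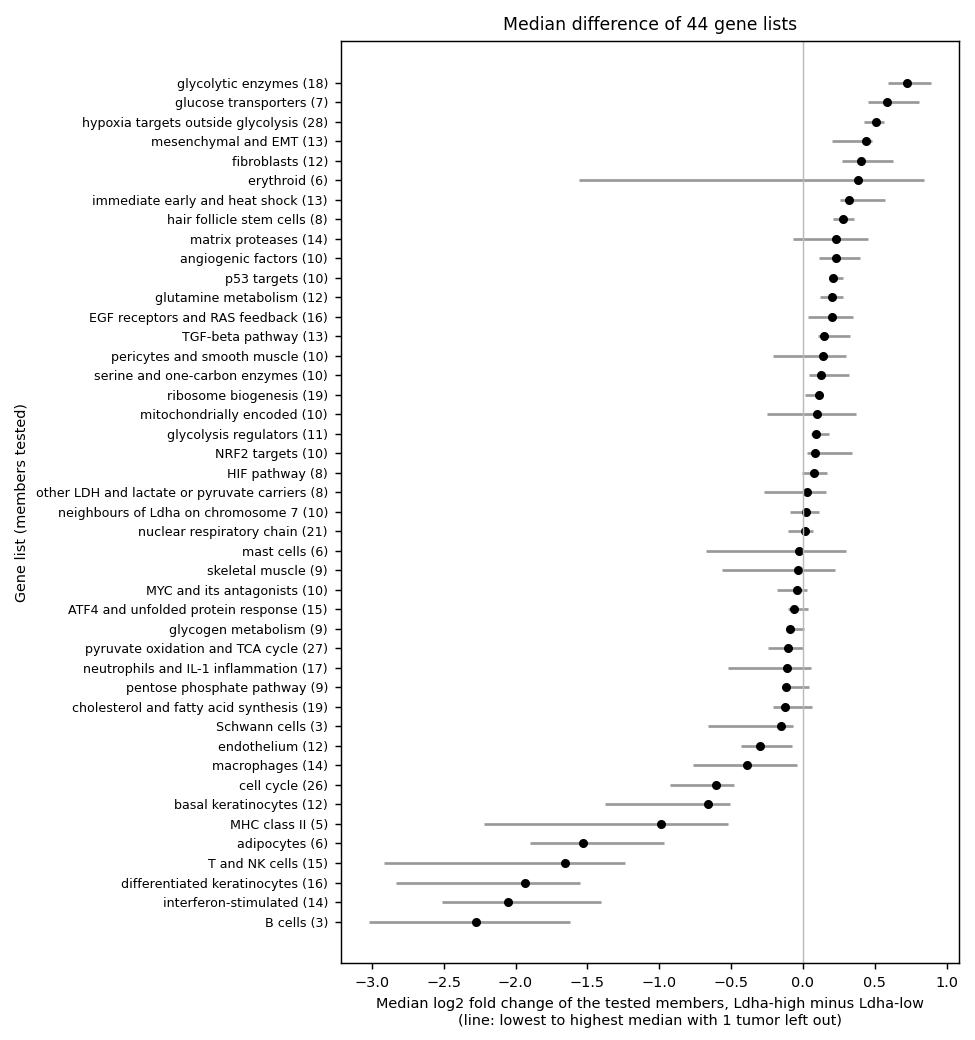
Median log2 fold change (Ldha-high minus Ldha-low) of each of the 44 lists with at least 3 tested genes, as a point, with the range over fits that each leave out 1 tumor as a line. Glycolytic enzymes lie at 0.73 and hypoxia targets at 0.51, and interferon-stimulated and differentiated keratinocyte genes lie near -2.

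The labels crossed the groups, so the lists were also compared within each label, as KO4 minus the mean of KO2 and KO5 and as the mean of WT1 and WT4 minus WT2. Glycolytic enzymes had medians of 0.71 (18 of 18 positive) within KO and 0.86 (15 of 18) within WT. Hypoxia targets had 0.47 and 0.59, interferon-stimulated genes -1.68 and -1.38, cell cycle genes -1.12 and -0.37, and differentiated keratinocyte genes -0.79 and -3.01. Each within-label difference has a single tumor on 1 side and was not tested.

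The share of genes with higher values also differed between chromosomes, which was noticed after the values were seen. On chromosome 15, 77.3% of tested genes had higher values in Ldha-high tumors (median log2 fold change 0.43), and 68.2% did on chromosome 7 (0.19), which carries *Ldha*, *Gpi1* and *Bnip3*. On chromosome 9 only 19.2% did (median -0.36). Against the mean of the 7 tumors, the median gene of chromosome 15 deviated by 0.42, 0.24 and -0.05 in the Ldha-high tumors and by -0.28, -0.24 and -0.17 in the Ldha-low tumors on the log2 scale. Chromosome 9 deviated by -0.28, 0.09 and -0.21 and by 0.34, 0.15 and 0.24. On chromosome 7, WT2 stood apart at -0.37. Taken relative to the median of each gene's own chromosome, the glycolytic enzymes had a median of 0.62 (16 of 18 positive), the hypoxia targets 0.48 (24 of 28), the cell cycle genes -0.65 and the interferon-stimulated genes -2.07. Measured this way, *Cox7a2*, *Idh3a* and *Plod2* on chromosome 9 had -0.28, -0.21 and -0.27, and *Atf4* on chromosome 15 had 0.24. DNA copy number was not measured, and its part in these values was not tested.

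**Figure D5:**
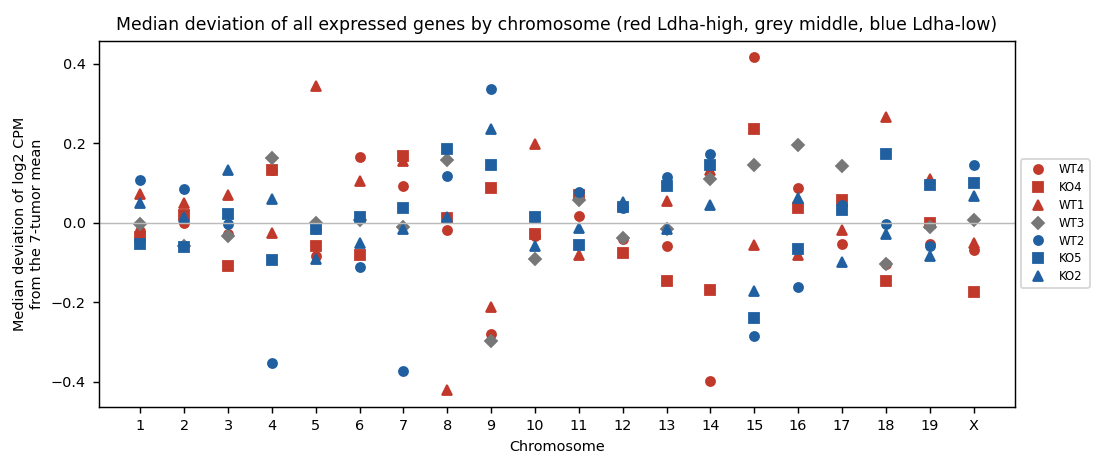
Median deviation of log2 CPM from the mean of the 7 Vim-high tumors by chromosome, 1 point per tumor, with Ldha-high tumors in red, WT3 in grey and Ldha-low tumors in blue. Red points lie above blue points on chromosomes 7 and 15 and below them on chromosomes 8, 9 and X.

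The libraries were also compared pairwise, and none was a copy of another. The chi-square of counts per degree of freedom was lowest between KO4 and WT4 (42.9) and between KO5 and WT2 (47.1), and highest between WT2 and WT4 (157.8). Both closest pairs joined tumors of the same Ldha group and different labels. The other pairs within a group were at 100.6 (KO4 and WT1), 102.6 (WT1 and WT4), 108.9 (KO2 and WT2) and 122.6 (KO2 and KO5). KO4 and KO5, from different groups, were closer than these, at 98.7. WT1 alone carried transcripts of Y-linked genes, with *Eif2s3y* at 15.4 FPKM, and *Xist* at 0.112 FPKM against 33.2 to 116 FPKM in the other 6, and *Xist* was the single tested member of the sex-linked list. Sex and the other properties of WT1 cannot be told apart.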

How the data were processed

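RNA came from fresh tumors, with selection of polyadenylated transcripts by oligo(dT), and was sequenced on a HiSeq2500 instrument. Bases were called with CASAVA 1.8. Reads were aligned to mm10 with TopHat2 and counted with HTSeq in union mode, in versions not given in the sources used here. The deposited counts are whole fragments per gene, made by the authors and not normalized. The deposited FPKM values were computed by the authors from these counts and a gene length, and served here to choose the tumors and to show levels. Strand was not stated, so overlapping antisense genes cannot be separated. The table holds 35275 genes.

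The 6 tumors were compared on counts with edgeR 4.0.16 in R 4.3.3 (filterByExpr with a minimum count of 10 and minimum total of 15, TMM, quasi-likelihood F-test, genotype label ignored, Benjamini-Hochberg adjustment over 15531 genes with *Ldha* left out, threshold 0.05). Log2 CPM used a prior count of 2. For single genes an exact permutation test (two-sided, 20 assignments) was added. Errors of log2 fold changes are standard errors of the fit, and the biological coefficient of variation was 34.8%. The p-values treat each tumor as a replicate of a group chosen from the data.

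The members, the 45 gene lists (563 genes) and the tests were chosen with earlier results of these data known. Lists are described by counts and medians, with no set test. The rule for named genes took the markers, the first 8 glycolytic enzymes by p, at most 4 genes per list ranked by p, and the first 10 genes by p on either side. Further members, *Atf3*, *Car9*, *Car12*, *Chac1*, *Cxcl10*, *Dusp6*, *Erbb3*, *Hif1a*, *Ldhb*, *P4ha1*, *Pfkfb3*, *Pkm*, *Plod2*, *Sesn1*, *Spred1*, *Sprr2d*, *Spry2*, *Tgfa*, *Trib3*, *Trp63*, *Vegfa* and *Eif2s3y*, were named after their values were seen. A few details and genes are left unreported here. The test was also tried on simulated counts. Alternatives were RLE and upper-quartile factors, no filter, a filter at a mean CPM of 5, voom from limma 3.58.1 with quality weights, DESeq2 1.42.0, the label as covariate, WT3 added to the Ldha-low tumors, a slope on log2 *Ldha* over 7 tumors, and leaving out each of the 6 tumors. A threshold of 0.10, values relative to the chromosome and differences within labels were added after the data were seen. Overlap between groups was computed on scaled log2 CPM and on FPKM, and the scale of the text was set back to the first after the first counts were seen.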

Additional observations from a re-analysis of the deposited data

Results flagged for a closer look

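For 6 named genes, every pair of Ldha-high and Ldha-low tumors gave one direction within the KO label and the opposite direction within the WT label, and the difference between the labels was not tested. Values are the log2 difference within KO (KO4 minus the mean of KO2 and KO5), then within WT (mean of WT1 and WT4 minus WT2). *Pfkfb4*, which sets the level of the phosphofructokinase activator, gave 0.206 and -0.858. *Arnt2*, a partner of the hypoxia-inducible factors, gave 0.673 and -0.320. *Mthfd1l*, a mitochondrial one-carbon enzyme, gave -0.284 and 1.11. *Vldlr*, a lipoprotein receptor, gave -0.0900 and 2.38. *Rgs5*, a pericyte gene, gave 0.0573 and -1.16. *Uevld*, a neighbour of *Ldha* on chromosome 7, gave -0.481 and 0.141. Of 199 named genes, 126 went the same way in every pair of both labels and 67 were mixed. Most named genes had been picked by small p in the same 6 tumors. These counts were thus partly set by that choice and do not describe genes that were not picked.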

How the results depend on the processing

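The number of genes past the threshold, 0 by edgeR with TMM, depended on the tool and on single tumors. It stayed at 0 with RLE factors, a mean CPM of at least 5, the label as covariate, and WT3 among the Ldha-low tumors. It was 3 with upper-quartile factors (3 higher, 0 lower), 111 without a filter on low counts (52 higher, 59 lower), 741 by limma-voom (414 higher, 327 lower), 693 by DESeq2 (313 higher, 380 lower), 1 for the slope on *Ldha* (1 higher), and 30 at an adjusted p under 0.10 (19 higher, 11 lower). Leaving out each tumor gave 0 to 97 genes (0 to 70 higher, 0 to 27 lower), with 97 without WT1, 23 without KO2 and 0 without each of the other 4, and the cause was not tested. The median of the glycolytic enzymes was 0.58 to 0.93 over all alternatives, and that of the hypoxia targets moved to 0.34 with WT3 among the Ldha-low tumors. Of 199 named genes, voom called 67 and changed the sign of 6 (*mt-Co1*, *Cma1*, *Cpa3*, *Myh1*, *Alas2* and *Hba-a2*, none past its threshold). DESeq2 called 66 and changed the sign of 0. Over all genes, voom called 4.77% and DESeq2 4.2%. Most named genes had been picked by small edgeR p in the same tumors, so their counts were partly set by that choice. No paired analysis was possible because the groups, formed across the labels, share no replicate number (4, 4 and 1 against 2, 5 and 2). Depth limits genes at a few fragments per tumor, and the biological coefficient of variation was 34.8%.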

Other observations

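WT3, which belongs to neither group, had 345 FPKM of *Ldha* against 340.1 FPKM in WT2. Its summed glycolytic enzymes were at 11031 FPKM, inside the Ldha-high range, and its summed hypoxia targets at 1542 FPKM. Its summed differentiated keratinocyte genes were at 861 FPKM and its summed interferon-stimulated genes at 513 FPKM. The 3 tumors under the *Vim* threshold, KO1, KO3 and WT5, had summed glycolytic enzymes of 52954, 12707 and 16414 FPKM and summed hypoxia targets of 1562, 2369 and 2201 FPKM. In KO1 skeletal muscle genes summed to 106506 FPKM, against at most 260.4 FPKM in the 6 compared tumors.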
